A study of Mus musculus with 48 samples.

Results

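Of 48 libraries, 16 are described here: progenitor cultures of mouse ER-Hoxb8 clones with the highest and the lowest Hoxb8 transcript level. The members were selected on Hoxb8 TPM: progenitor libraries were ranked by it within clones 1 to 13 and again within clones 15 to 26. The 4 highest of each set formed the high group (n = 8) and the 4 lowest the low group (n = 8). The remaining 6 ranked libraries were in neither group, and the progenitor libraries of clones 21 and 24 were not ranked. TPM are transcript abundances corrected for transcript length and expressed relative to the library total, so they are relative and keep no sequencing depth.

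The series holds 24 clones of mouse bone marrow origin, each sequenced once in a progenitor state, labelled as GMP cells (granulocyte-monocyte progenitors), and once in a monocytic state. All 16 clones compared here carry the same kind of construct, and none is a control without it. Each clone gave 1 library per state, so the spread between libraries is a spread between clones. The labels give RPMI medium with serum and SCF for growth. The labels give no mouse strain, age, promoter or integration site.

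Hoxb8 is a homeobox transcription factor that blocks myeloid maturation when it is forced to stay on. In ER-Hoxb8 cells it is fused to the hormone-binding part of the estrogen receptor, so that the protein acts while hormone is present and the cells mature once it is withdrawn. Homeobox factors of this family bind short AT-rich motifs, often together with partners of the Pbx and Meis families. Transcript level and activity are separate properties of such a fusion, and only the transcript was measured.

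Hoxb8 TPM chose the groups, so its values are a description. In clones 1 to 13 the high libraries held 101.4 (clone 11), 94.5 (clone 1), 78.4 (clone 8) and 75.6 (clone 4) TPM. The low libraries of that set held 44.8 (clone 5), 43.9 (clone 9), 33.7 (clone 7) and 30.1 (clone 13) TPM. The libraries just outside the groups were clone 6 at 68.6 and clone 3 at 47.9 TPM, so the steps between neighbours in the ranking were small in this set.

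In clones 15 to 26 the high libraries held 571.9 (clone 15), 471.1 (clone 17), 391.6 (clone 16) and 386.6 (clone 19) TPM. The low libraries held 193.5 (clone 23), 172.0 (clone 20), 155.1 (clone 22) and 108.8 (clone 26) TPM, and the one ranked library between the groups was clone 18 at 324.2 TPM. Every low library of this set had more Hoxb8 transcript than every high library of clones 1 to 13. High and low are therefore relative to the set, and set was a covariate in the tests.

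Esr1, the gene of estrogen receptor alpha, followed Hoxb8. In clones 1 to 13 the high libraries held 3.69 to 5.89 TPM and the low libraries 1.56 to 2.58 TPM. In clones 15 to 26 these ranges were 18.5 to 30.5 and 3.86 to 9.22 TPM, and the groups did not overlap in either set. Whether the Esr1 and Hoxb8 reads come from the fusion or from the native genes cannot be read from values per gene symbol. Esr1 was not tested in progenitors because it is part of the same construct.

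**Figure D1:**
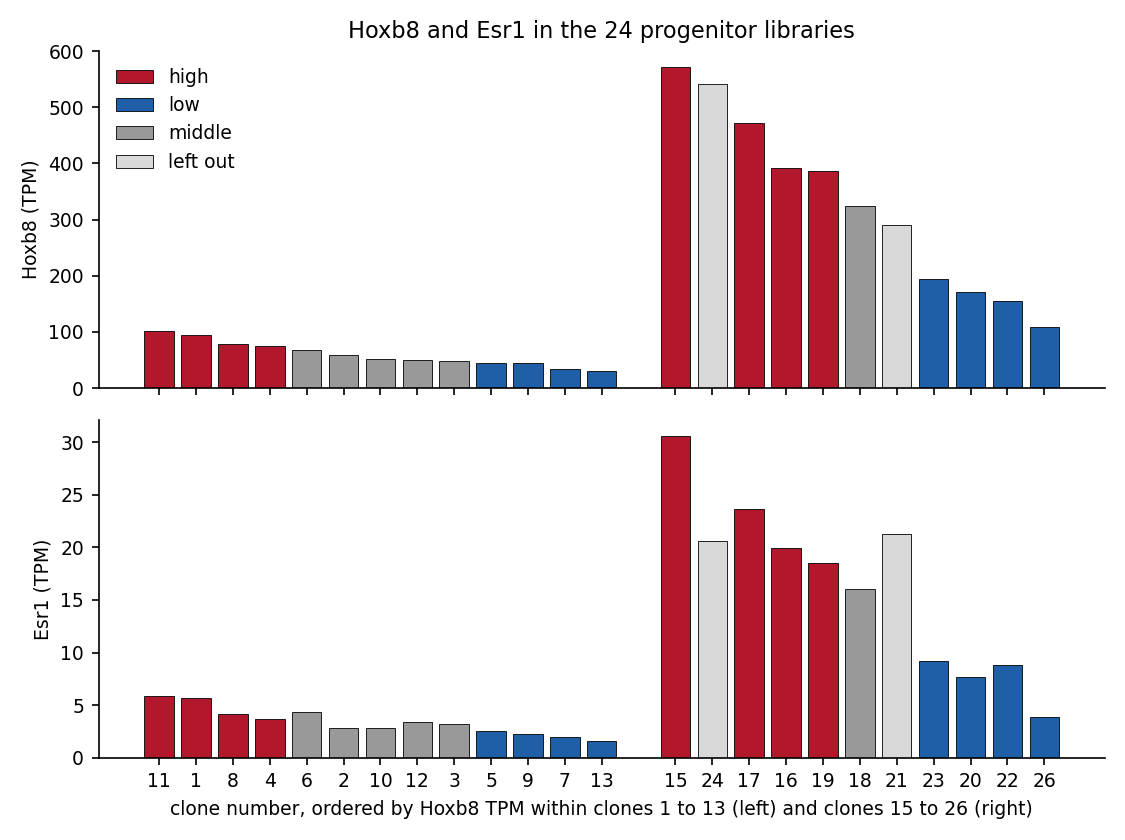
Hoxb8 (upper) and Esr1 (lower) in TPM in the 24 progenitor libraries, 1 bar per clone, ordered by Hoxb8 within clones 1 to 13 and clones 15 to 26. The low group of clones 15 to 26 (108.8 to 193.5 TPM of Hoxb8) stands above the high group of clones 1 to 13 (75.6 to 101.4 TPM).

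Progenitor markers were present in all 16 libraries. Cd34, a surface protein of progenitors, stood at 253 to 742 TPM in the high group and at 260 to 521 TPM in the low group. Kit, the receptor of SCF, stood at 29.1 to 125 and 26.03 to 105 TPM. The sum of 14 mast cell and basophil markers ranged from 986 to 2558 TPM in high libraries and from 331 to 3309 TPM in low ones. The sum of 24 neutrophil genes was 183 to 1467 and 171 to 13826 TPM, with the top value in low clone 20, where S100a8 reached 3502 TPM. The part of these cell type markers in the results was not tested, and in bulk RNA fewer cells of a type and less RNA per cell cannot be told apart. Ear6 of the eosinophil list, Cd3e and Ncr1 of the lymphoid list and Col3a1 and Lum of the stromal list were listed at 0 in all 16 libraries. High libraries held 10520 ± 473 (SD, n = 8) genes with at least 1 TPM and low libraries 10158 ± 659 (exact permutation within sets, two-sided, p = 0.0306, adjusted over 6 library measures 0.184). Mitochondrial transcripts took 9.46% ± 3.18 and 8.45% ± 3.51 of TPM (exact permutation p = 0.101, adjusted 0.298).

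The first comparison asked which other genes differ between progenitors with high and with low Hoxb8. No gene passed the test. Of 10678 genes with a mean of at least 1 TPM, limma called 0 at an adjusted p under 0.05 (0%), and 1431 had an unadjusted p under 0.05. Among those, 1201 were higher in the high group (11.2% of genes tested) and 230 lower (2.15%). Differences are given below as high minus low on the log2(TPM + 1) scale, which understates those of low genes.

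The excess of higher genes changed with the scaling and with the libraries ranked. The median difference over all genes was 0.17. It was 0.31 among clones 1 to 13 and 0.02 among clones 15 to 26. After quantile normalization, which gives all libraries the same distribution, 632 genes were higher (5.92%) and 666 lower (6.24%), with a median of 0.00. Whatever their p, 78.6% of all genes tested had a positive difference as deposited and 49.4% after quantile normalization. With clones 21 and 24 ranked, clone 24 replaced clone 19 in the high group, and 76 genes were higher and 165 lower. Small positive differences are best read against the median, and the shares above are the background for the counts of gene lists below.

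Smim24, which encodes a small membrane protein, had the smallest p. In clones 1 to 13 the high libraries held 6.92, 4.58, 5.61 and 3.95 TPM (clones 1, 4, 8 and 11) and the low libraries 2.26, 1.92, 2.41 and 2.34 TPM (clones 5, 7, 9 and 13). In clones 15 to 26 the high libraries held 4.65, 8.66, 4.91 and 2.22 TPM (clones 15, 16, 17 and 19) and the low libraries 0.636, 1.28, 0.296 and 1.16 TPM (clones 20, 22, 23 and 26). High and low did not overlap in either set, and clone 19 was the lowest of the high libraries. The difference was 1.30 (SE 0.21, unadjusted p = 1.33e-05, limma adjusted p = 0.142). Without clone 11 the adjusted p of Smim24 was 0.0388, and after quantile normalization its difference was 0.98 with an adjusted p of 0.343. The 5 libraries of clones 1 to 13 between the groups held 2.73 to 4.37 TPM, above all 4 low libraries of that set.

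Across the sets, Smim24 did not follow Hoxb8. The low libraries of clones 15 to 26 had more Hoxb8 than any library of clones 1 to 13, yet their Smim24 (0.296 to 1.28 TPM) lay under that of the low libraries of clones 1 to 13 (1.92 to 2.41 TPM). Smim24 lies on chromosome 10 of GRCm38 (mm10) from 81393051 to 81395392 on the plus strand and is annotated as protein-coding.

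Il3ra encodes the alpha chain of the receptor for interleukin-3, a growth factor of early myeloid cells. Its high libraries held 41.5, 22.5, 35.5 and 26.3 TPM in clones 1 to 13 and 14.5, 22.6, 30.3 and 34.2 TPM in clones 15 to 26. Its low libraries held 22.1, 21.3, 13.7 and 17.3 TPM and then 11.4, 12.8, 11.9 and 7.82 TPM. The groups did not overlap in either set, by a narrow margin in clones 1 to 13, where high clone 4 at 22.5 stood next to low clone 5 at 22.1 TPM. The difference was 0.90 (SE 0.19, limma adjusted p = 0.233). Il3ra lies on chromosome 14 from 14346275 to 14356011.

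The promoters of Smim24 and Il3ra are shown because, among genes with a mean of at least 5 TPM in the higher group, these had a small p in both states (below). The sequences are from RefSeq on GRCm38.p6 and run 5′ to 3′ along the gene, from 250 bases before to 50 after its RefSeq start. For Il3ra that start differs from the one given above (14346275). Most of its window, from 14346245 to 14346544, therefore lies inside the gene as located above. Capitals mark TAAT on either strand (TAAT or ATTA), the core shared by many homeobox motifs.
Smim24, chr10:81392814-81393113, plus strand: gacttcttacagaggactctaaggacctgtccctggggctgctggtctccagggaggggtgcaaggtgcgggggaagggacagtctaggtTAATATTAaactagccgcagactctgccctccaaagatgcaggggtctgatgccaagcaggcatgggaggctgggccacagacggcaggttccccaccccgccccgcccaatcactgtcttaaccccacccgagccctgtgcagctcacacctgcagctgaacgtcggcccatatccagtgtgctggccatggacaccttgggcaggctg
Il3ra, chr14:14346245-14346544, plus strand: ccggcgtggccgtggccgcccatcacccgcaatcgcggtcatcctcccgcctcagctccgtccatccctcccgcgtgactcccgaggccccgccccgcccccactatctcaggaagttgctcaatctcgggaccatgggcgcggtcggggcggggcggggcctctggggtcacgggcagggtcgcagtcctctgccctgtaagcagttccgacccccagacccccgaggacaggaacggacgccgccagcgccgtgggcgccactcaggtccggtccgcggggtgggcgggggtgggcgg
The Smim24 window held 2 adjoining matches and the Il3ra window 0. Of 32851 promoters of this length in the table, 58.0% held at least 1 match, so a match in 1 window is common. No binding was measured, and the letters describe these windows only.

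Etv4, an ETS transcription factor of the PEA3 group, was the third gene without overlap in either set among the 10 named for the smallest p in the higher direction (same sign in both sets, at least 5 TPM in the higher group, no Gm, Rik, pseudogene or mitochondrial entries). Its high libraries held 7.09 to 11.9 TPM in clones 1 to 13 and 7.55 to 14.3 TPM in clones 15 to 26, against 2.66 to 5.58 and 3.27 to 7.49 TPM in low libraries. The difference was 1.001 (SE 0.18, limma adjusted p = 0.212). Over all 10678 genes, 11 had all high above all low libraries in both sets (0.103%) and 8 had them below (0.0749%).

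Cd27, a receptor of the TNF family found on early progenitors and lymphocytes, had the widest difference of the 10. Its means were 16.6 ± 10.7 and 4.12 ± 2.63 TPM (SD, n = 8 each), with a difference of 1.80 (SE 0.41, limma adjusted p = 0.298). It was 0.90 in clones 1 to 13, where the groups overlapped, and 2.70 in clones 15 to 26, where the high libraries held 7.58 to 39.5 and the low libraries 0.362 to 4.45 TPM. The difference between the sets did not pass the test for any gene (below).

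The other 6 genes of the higher direction were Ass1, Pear1, Gtf2ird1, Atp10a, Bbc3 and Fpgs. Ass1, the argininosuccinate synthase of arginine synthesis, averaged 28.1 ± 11.9 against 12.8 ± 6.53 TPM, a difference of 1.10. Bbc3, also called Puma, a BH3-only death gene, averaged 15.5 ± 5.09 against 9.85 ± 3.64 TPM, a difference of 0.61. Fpgs, which adds glutamate to folates, differed by 0.57, and Pear1, a surface receptor known from platelets and endothelium, by 0.75. Gtf2ird1, a nuclear factor related to the general factor TFII-I, differed by 0.71, and Atp10a, a lipid flippase, by 0.62. None of the 10 passed, with limma adjusted p from 0.142 to 0.298, and all 10 had the same sign after quantile normalization (0.38 to 1.57).

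Clone 11 had the most Hoxb8 of its set and the least high-like values for several of these genes. It was the lowest high library of clones 1 to 13 for Smim24 (3.95 TPM), Etv4 (7.09 TPM), Bbc3 (8.83 TPM), Fpgs (8.39 TPM), Gtf2ird1 (15.6 TPM), Pear1 (1.83 TPM) and Atp10a (2.26 TPM). Its Gtf2ird1 and Fpgs lay under those of low clone 13 (16.96 and 9.06 TPM). Cd27 of clone 11 was 13.1 TPM, second in its set.

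By the same conditions, the 10 genes with the smallest p in the lower direction were Tma7, Ndufb6, Nme2, Tmem14c, Ndufa2, Cox17, Atp5j, Cox7a2, Snrpg and Ndufs6. As background, Ndufb6, Ndufa2 and Ndufs6 encode parts of respiratory complex I, Cox7a2 a subunit of cytochrome oxidase, Cox17 its copper chaperone and Atp5j a part of ATP synthase. Nme2 is a nucleoside diphosphate kinase, Tmem14c a mitochondrial membrane protein needed for heme synthesis and Snrpg a core protein of spliceosomal snRNPs. Tma7 is a small protein named for its association with the translation machinery.

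Their differences were small, from -0.48 (Snrpg) to -0.30 (Ndufs6), and the limma adjusted p ran from 0.298 to 0.315. Ndufb6 was at 54.0 to 63.0 TPM in high and 79.4 to 87.4 TPM in low libraries of clones 1 to 13, and at 52.4 to 55.0 and 57.1 to 70.9 TPM in clones 15 to 26. Its groups did not overlap in either set, and the same was true of Nme2, Cox17 and Ndufs6. For Nme2 the gap was narrow in both sets, with high clone 11 at 355 TPM beside low clone 5 at 371 TPM, and high clone 19 at 264 beside low clone 20 at 267 TPM. All 10 kept their sign after quantile normalization (-0.45 to -0.27).

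**Figure D2:**
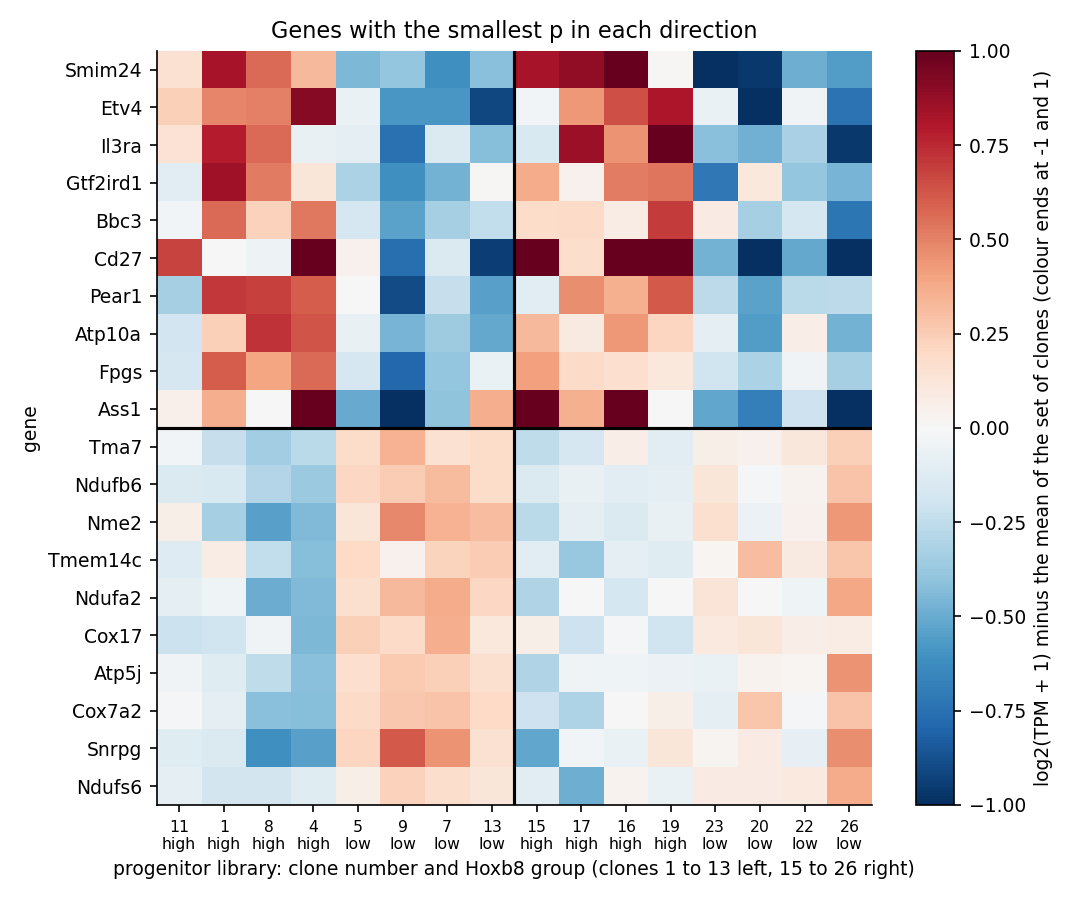
log2(TPM + 1) minus the mean of the set of clones for the 10 genes with the smallest p in each direction (rows) in the 16 progenitor libraries (columns, by clone and Hoxb8 group). Colours end at -1 and 1. The genes of the higher direction have differences of 0.57 to 1.80 and those of the lower direction -0.48 to -0.30; clone 11 is the palest of the high libraries in the left block for several genes.

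The lower genes had short transcripts. The median transcript length of each of these 10 genes was 383 to 914 bases. That did not set them apart from the 10 named higher genes, at 573.5 to 3054 bases. Of those, Smim24, Etv4, Il3ra, Bbc3, Cd27, Fpgs and Ass1 lay within the range of the lower genes. Gtf2ird1, Pear1 and Atp10a lay above it. Of 10523 genes with a transcript length, the 2634 shortest (53 to 715 bases) had an unadjusted p under 0.05 in the lower direction in 5.73% of cases and the 2630 longest in 0.228%. In the higher direction these shares were 7.59% and 15.02%. The median difference of these shortest and longest genes was 0.18 and 0.39 in clones 1 to 13. In clones 15 to 26 it was 0.008 and 0.026. Length thus went with direction when the sets were pooled, and by medians mainly in clones 1 to 13. The part of length in the oxidative phosphorylation result below was not tested.

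Gene lists were read against the backgrounds of 11.2% higher and 2.15% lower, and in no list did a member pass the adjusted test. Of 30 Hox genes and partners, 5 reached a mean of 1 TPM, all of them partners: Meis1, Pbx2 and Pknox1 were among the higher genes at an unadjusted p under 0.05, with differences of 0.47, 0.31 and 0.40. None of the 3 was under that p after quantile normalization. Meis1, a cofactor that joins Hox and Pbx proteins on DNA, stood at 2.44 to 9.31 TPM in high and 1.55 to 4.75 TPM in low libraries of clones 1 to 13, which overlap. Hoxa9, a Hox gene of early progenitors, was at 1.37 TPM in clone 4, at 0.0132 TPM in clone 11 and listed at 0 in the other 14 libraries.

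Of 17 measured stem and progenitor transcription factors, 6 were higher at an unadjusted p under 0.05 and 0 lower (median 0.33), and the counts were 6 and 0 after quantile normalization (median 0.25). The 6 were Nfe2 (difference 0.47), Hlf (0.98), Lyl1 (0.37), Erg (0.55), Gata2 (0.70) and Zfpm1 (0.72). Hlf, a PAR bZIP factor of blood stem cells, averaged 176 ± 65.2 TPM in high and 95.4 ± 53.4 TPM in low libraries (SE of the difference 0.32, limma adjusted p = 0.334). Its groups overlapped in both sets: high clones 1 and 11 at 98.9 and 95.8 TPM lay under low clone 5 at 139 TPM, and low clone 22 at 193 TPM lay above high clones 17 and 19 at 153 and 139 TPM. Gata2, a zinc finger factor of stem cells and mast cells, averaged 37.2 ± 11.2 and 23.6 ± 11.7 TPM, and in clones 1 to 13 clone 11 (14.3 TPM) lay under low clones 5 and 7 (36.8 and 21.8 TPM). For Erg and Zfpm1 most of the difference was in clones 1 to 13 (0.94 and 1.24) and little in clones 15 to 26 (0.17 and 0.21).

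Of 12 measured progenitor surface genes, Cd27 and Kit were higher at an unadjusted p under 0.05. Kit differed by 0.46 (SE 0.17, limma adjusted p = 0.351), and by 0.63 and 0.28 within clones 1 to 13 and clones 15 to 26. All 14 measured cytokine receptors had positive differences (median 0.30, and 0.10 after quantile normalization), as had 78.6% of all genes. Among these receptors Il3ra alone was under that p. Of 11 genes of the Myc network 3 were under it: Myc (0.52), Mnt (0.54) and Mlxip. Myc, a driver of growth and ribosome synthesis, stood at 30.4 to 71.4 TPM in high and 17.8 to 33.9 TPM in low libraries of clones 1 to 13, but at 95.9 to 130 and 101 to 113 TPM in clones 15 to 26, where the groups lay on top of each other.

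Among stress and signalling lists, 5 of 18 genes of the integrated stress and unfolded protein responses were higher at an unadjusted p under 0.05 (Trib3, Asns, Shmt2, Mthfd2 and Herpud1), and 4 after quantile normalization. Asns, the asparagine synthetase that is induced when amino acids run short, averaged 127 ± 37.4 against 97.3 ± 44.4 TPM. Of 23 chromatin regulators 5 were higher (Dnmt1, Dnmt3b, Dot1l, Kdm6b and Asxl1), and 3 after quantile normalization. Of 10 measured interferon response genes 3 were higher (Rtp4, Trim30a and Irf9), as were 3 of 10 inflammatory genes (Il6, Nfkb1 and Nfkb2), with 1 of each list after quantile normalization. Il6, an inflammatory cytokine, stood at 3.11 to 13.1 TPM in high and 1.15 to 2.96 TPM in low libraries of clones 15 to 26, but the groups overlapped in clones 1 to 13, where no library was above 2.73 TPM.

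Oxidative phosphorylation was the one list with more than 1 gene in the lower direction: 4 of 19 measured nuclear-encoded subunits were lower at an unadjusted p under 0.05 and 0 higher, and 5 and 0 after quantile normalization. The 4, all of cytochrome oxidase, were Cox7a2 (difference -0.35), Cox6c (-0.29), Cox4i1 (-0.27) and Cox5a (-0.20). The list as a whole lay close to 0, with a median of -0.04, and 7 of its 19 genes had positive differences. The sum of the 19 genes was 4395 to 5669 TPM in high and 4715 to 6002 TPM in low libraries, which overlap. Of the 13 mitochondrially encoded genes, 12 had positive differences and 0 were under that p, with 2 higher after quantile normalization. For comparison with both lists, 78.6% of all genes had positive differences.

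Genes of mature cells were mixed. Of 17 measured neutrophil genes Slpi alone, a secreted inhibitor of elastase, was under an unadjusted p of 0.05. In clones 15 to 26 the high libraries held 15.5, 11.7, 169 and 9.36 TPM and the low libraries 148, 142, 231 and 655 TPM. In clones 1 to 13 high clone 4 held 20.04 TPM and the other high libraries 266 to 307 TPM, against 261 to 515 TPM in low ones, and the difference over both sets was -2.32 (SE 0.67, limma adjusted p = 0.315). Elane, the neutrophil elastase of primary granules, was the one primary granule gene under that p (difference 2.07, SE 0.88), although low clone 20, at 183 TPM, was the highest of the 16 libraries. After quantile normalization its unadjusted p was 0.0572, and the primary granule list had 0 genes higher and 1 lower at an unadjusted p under 0.05. All 7 measured dendritic cell and MHC class II genes had positive differences (median 0.33), as had 78.6% of all genes. Of the 7, 2 were higher at an unadjusted p under 0.05. They were H2-Ab1, an MHC class II chain (difference 1.31, SE 0.43), and Bst2, also called tetherin (0.26, SE 0.11). After quantile normalization 0 of the 7 were under that p. As deposited, no measured gene of the classical monocyte, macrophage, mast cell, erythroid or lymphoid lists was under that p. After quantile normalization 1 gene each of the macrophage, erythroid and lymphoid lists was lower at that p. Cpa3, a mast cell protease, stood at 902 to 1892 TPM in high and 262 to 2187 TPM in low libraries.

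In lists of growth and metabolism the higher counts as deposited lay under the background of 11.2%. Of 26 DNA replication genes 2 were higher (Cdc6 and Cdt1), of 24 mitosis genes 1 (Cenpe), of 18 ribosome biogenesis genes 1 (Polr1b), of 19 cholesterol synthesis genes 2 (Dhcr7 and Srebf2), and of 18 glycolysis genes 0. After quantile normalization the DNA replication, ribosome biogenesis and cholesterol synthesis lists had 2 higher genes each, above the background of 5.92%. The mitosis and glycolysis lists then had 0. The ribosome biogenesis and mitosis lists also had 1 lower gene each. The positive difference of Cenpe turned to -0.03 and that of Polr1b to -0.01 with clones 21 and 24 ranked. Glycolysis genes had a median of 0.68 in clones 1 to 13 and -0.21 in clones 15 to 26.

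**Figure D3:**
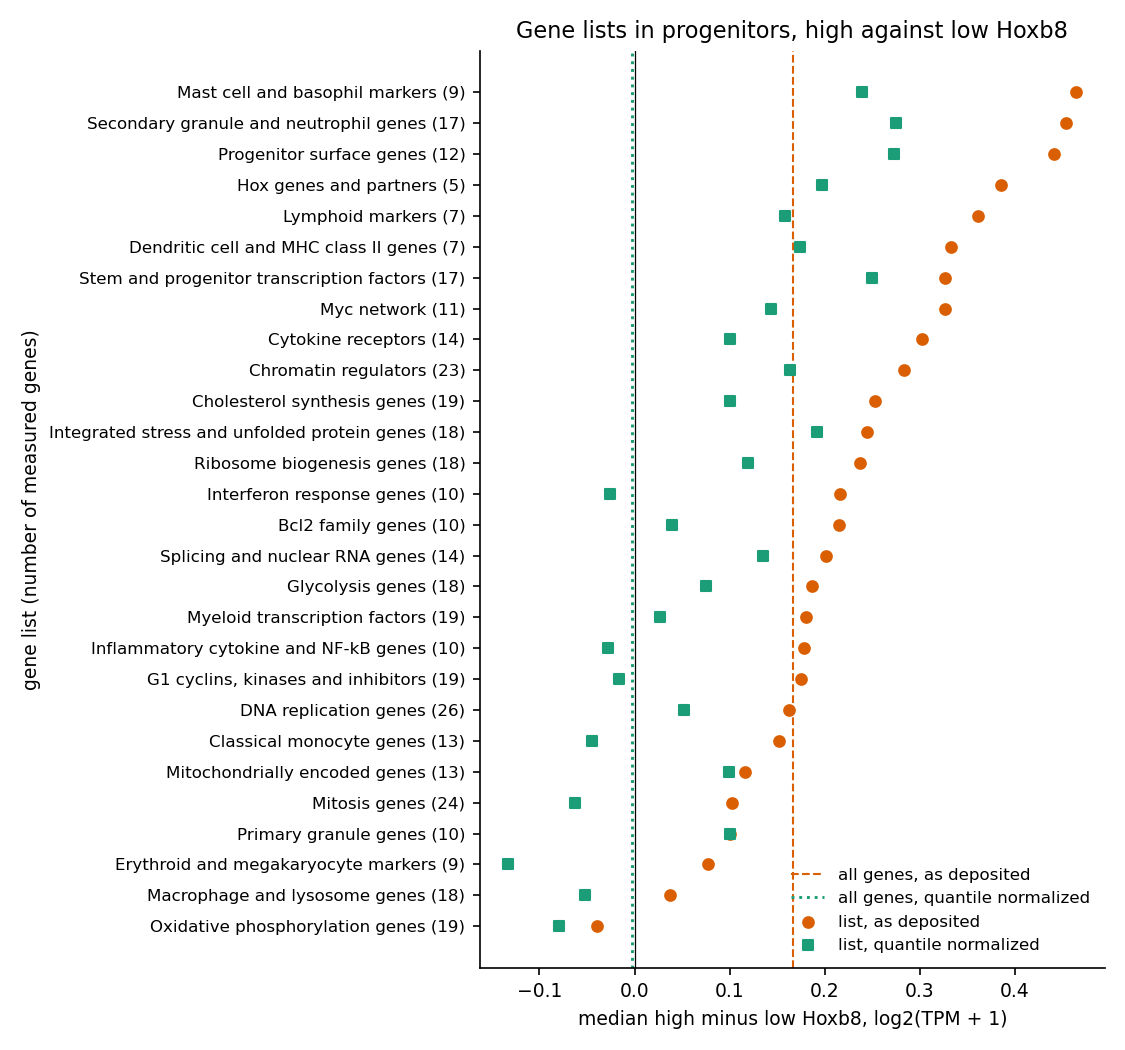
Median high minus low difference over the measured genes of each list with at least 4, on the log2(TPM + 1) scale, as deposited (circles) and after quantile normalization (squares), with the median of all genes as dashed (0.17) and dotted (0.00) lines. Most lists move left with the median of all genes; oxidative phosphorylation is at -0.04 and stem and progenitor transcription factors are at 0.33 and 0.25.

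A slope on Hoxb8 over all 22 ranked libraries, an alternative to the grouped comparison that contains the same libraries, called 8 genes (0.0749%) at a limma adjusted p under 0.05. Per SD of Hoxb8 within its set, which was 0.65 on the log2 scale, Smim24 rose by 0.53 (SE 0.09, adjusted p = 0.0331). Nectin2, a cell adhesion protein, rose by 0.39, Acot11, an acyl-CoA thioesterase, by 0.33, Aldh7a1, an aldehyde dehydrogenase of lysine breakdown, by 0.52, and Cyp4f16, a cytochrome P450, by 0.32. Mrps36 and its copy Mrps36-ps1 were lower by slopes of -0.33 and -0.34, and the pseudogene entry Txn-ps1 rose by 0.68; reads of such near-identical copies cannot be told apart with certainty. Nectin2, with 1.19 to 3.58 TPM in high and 0.0813 to 1.64 TPM in low libraries, Acot11, Aldh7a1 and Cyp4f16 are all low genes. Etv4 (adjusted p = 0.0544), Il3ra (0.0527) and Cd27 (0.0527) missed the threshold in that fit.

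The next comparison asked whether the difference was alike in the 2 sets of clones. The interaction of set with Hoxb8 group was called for 0 of 10678 genes (0%), and 960 had an unadjusted p under 0.05 (8.99%). Within the sets alone, Gm28688 was called in clones 1 to 13, and Tfpi and Mtus2 in clones 15 to 26. These 2 genes are described because they were called there, a choice made after their values were seen.

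Tfpi, an inhibitor of the tissue factor pathway of coagulation, was at 32.7, 21, 30.5 and 23.1 TPM in the high libraries of clones 15 to 26 and at or under 0.148 TPM in all 4 low ones. Mtus2, a microtubule-associated protein, was at or under 0.193 TPM in the high libraries and at 3.22, 4.69, 4.11 and 2.28 TPM in the low ones. In clones 1 to 13 both genes were on or off without regard to the Hoxb8 group: Tfpi was at 20.6 and 25.1 TPM in high clones 1 and 11 and at 17.7 and 56.5 TPM in low clones 5 and 13, and at most 1.82 TPM in the other 4. Mtus2 was at 4.96, 2.81 and 2.59 TPM in clones 8, 7 and 9 and at most 0.0898 TPM in the other 5. The monocyte libraries of these clones showed the same split for Mtus2, with 4.59 to 7.11 TPM in the low clones of 15 to 26 and at most 0.350 TPM in the high ones. Tfpi did not overlap there either, at 0.785 to 7.84 TPM in the high clones and at most 0.231 TPM in the low ones.

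**Figure D4:**
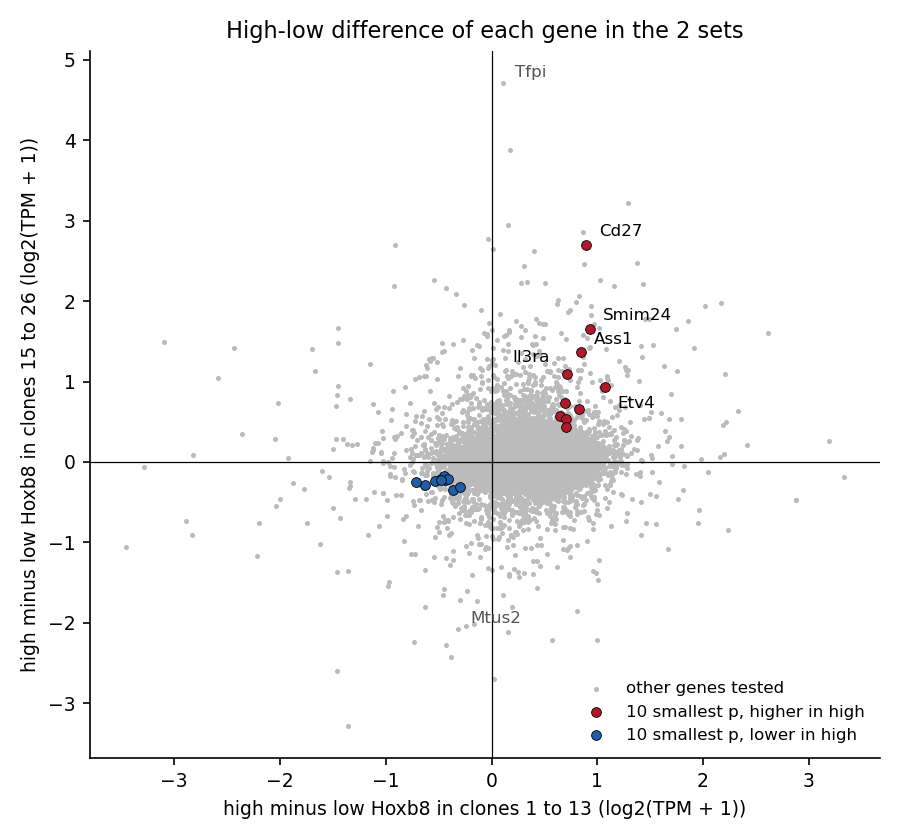
High minus low difference on the log2(TPM + 1) scale in clones 1 to 13 (x axis) and clones 15 to 26 (y axis) for the 10678 genes tested, with the 10 genes of smallest p in each direction coloured. The cloud is shifted to the right (median 0.31) and centred near 0 on the y axis (0.02); Tfpi and Mtus2 lie far from 0 on the y axis only.

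The monocyte libraries of the same 16 clones were not used to choose the groups, so Hoxb8 itself was tested there. In clones 1 to 13 the clones with high progenitor Hoxb8 held 79.2, 208, 160 and 264 TPM as monocytes (clones 1, 4, 8 and 11) and the low clones 46.5, 180, 165 and 138 TPM (clones 5, 7, 9 and 13), which overlap. In clones 15 to 26 the values were 293, 328, 481 and 554 TPM against 204, 252, 104 and 66.3 TPM, which do not. The mean difference was 0.999 on the log2(TPM + 1) scale (exact permutation within sets, two-sided, p = 0.0273; the smallest p that 4900 arrangements allow is 0.000408). With 3 clones per group and set it was 0.58 (exact permutation p = 0.245), and without clone 4, 5 or 11 the exact permutation p was 0.0506, 0.0653 and 0.0584. Esr1 differed by 0.82 (exact permutation p = 0.0327). Hoxb8 and Esr1 were also in the limma test of 9941 genes below, and neither passed after adjustment (limma unadjusted p = 0.0170 and 0.0239).

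Across genes, limma called 0 of 9941 in the monocyte libraries (0%), and 68 had an unadjusted p under 0.05 (0.684%). The smallest p again belonged to Smim24. It was at 7.77, 5.77, 9.23 and 6.16 TPM in the high clones of 1 to 13 and at 2.65, 3.08, 4.60 and 3.60 TPM in the low ones, without overlap. In clones 15 to 26 it was at 6.12, 14.9, 6.0 and 3.17 TPM against 0.907, 3.73, 1.16 and 1.17 TPM, where high clone 19 lay under low clone 22. The difference was 1.22 (SE 0.28, unadjusted p = 0.000402), and the limma adjusted p was 1. The progenitor and monocyte libraries of a clone come from the same clone, so they are not independent samples of Hoxb8 level.

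Il3ra came next among genes with a mean of at least 5 TPM in the higher group, gene models named Gm aside (unadjusted p = 0.00255, difference 1.27, SE 0.36). It was at 14.8 to 30.9 TPM in the high and 9.68 to 22.3 TPM in the low clones of 1 to 13, and at 20.5 to 39.1 and 1.75 to 16.9 TPM in clones 15 to 26. Etv4, Cd27 and Pear1 were under the filter of 1 TPM on average in monocytes. Of the 7 genes of the higher direction that were measured in monocytes, 6 had a positive difference there, and of the 10 of the lower direction 4 had a negative one. Over all 9939 genes measured in both states, 53.3% had the same sign and 55.56% had a positive difference in monocytes. Among genes at an unadjusted limma p under 0.05 in progenitors, that positive share was alike for both directions. It was 61.85% of 1101 higher genes and 61.82% of 220 lower genes. Ndufb6, which did not overlap in progenitors, was at 31.9 to 50.4 TPM in low and 40.4 to 48.7 TPM in high monocytes of clones 1 to 13.

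The difference between states in the high-low contrast was called for 0 of 11110 genes (0%), with clone as a block, and 197 had an unadjusted p under 0.05 (1.77%). For Smim24 the monocyte minus progenitor difference in contrast was -0.07 (unadjusted p = 0.719). A gene at a small p in one state and not in the other is therefore not shown to differ between states.

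**Figure D5:**
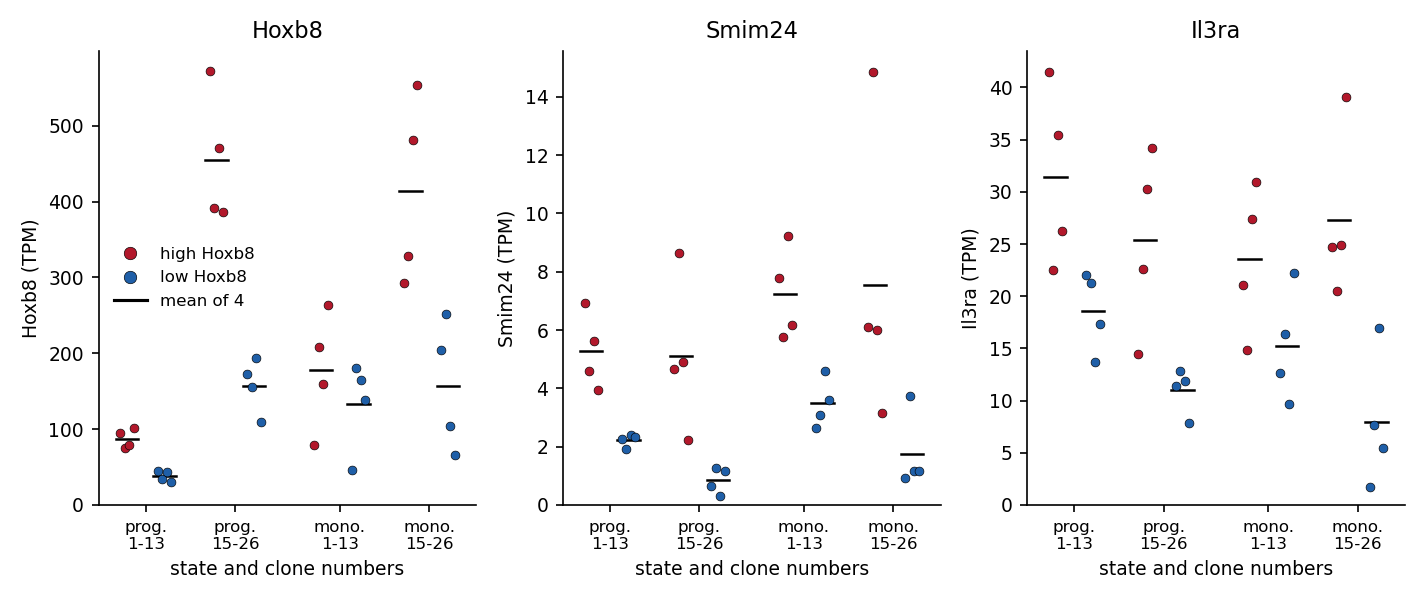
TPM of Hoxb8, Smim24 and Il3ra in progenitor (prog.) and monocyte (mono.) libraries of the 16 clones, by set and by the Hoxb8 group of the progenitor library; points are libraries and lines are means of 4. Smim24 means lie at 5.26 and 2.23 TPM in progenitors and 7.23 and 3.48 TPM in monocytes of clones 1 to 13.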

How the data were processed

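The authors deposited TPM in 1 table of 34643 gene symbols by 48 libraries, made with Salmon on mm10 per the submitters' processing notes. The Salmon version, the annotation and the step from transcripts to genes are not stated there. The deposited TPM of the 16 libraries summed to 996955 to 998683. Depth cannot be recovered from TPM, so counting error is unknown, and a listed 0 may be an estimate that failed. A total of 26 rows named as calendar dates were left out. No 2 libraries were identical (highest correlation 0.9916).

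Groups came from the rank of Hoxb8 as described. The sets of clones follow clone numbers, and the labels name no batch. Values as log2(TPM + 1) were tested in limma 3.58.1 (R 4.3.3) with set as covariate and a mean-variance trend, two-sided, Benjamini-Hochberg over all genes with a mean of at least 1 TPM, threshold 0.05. Hoxb8 and Esr1 were left out before adjustment in progenitors. The state comparison had clone as a block, since the series' design pairs the states by clone. Single values had exact permutation tests within sets. The script was tested on simulated data. Python 3.11.15, numpy 2.4.6, pandas 2.3.3 and matplotlib 3.10.9 made tables and figures.

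Named genes were Hoxb8, Esr1, 10 genes per direction with the same sign in both sets and at least 5 TPM in the higher group (ranked by unadjusted p, since none passed), without Gm, Rik, pseudogene and mitochondrial entries, and up to 2 genes per list by p. Others, such as Tfpi and Mtus2, were added after their values were seen. Members and lists were chosen with earlier results of these data known. Gene coordinates and lengths are from GENCODE M21 on GRCm38, the assembly of mm10.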

Additional observations from a re-analysis of the deposited data

Results flagged for a closer look

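Dixon's test at 95% was applied to 204 groups of 8 libraries (named genes by state and Hoxb8 group, and the library measures of progenitors). The groups of 8 mix both sets of clones, whose levels can differ widely. The rate of 1 in 20 therefore cannot say how many marks chance would give here. The test marked 10 groups, about 1 in 20. In 4 of them progenitor clone 11 stood apart from the other high libraries: Nme2 at 355 TPM, where the next was 270, Pear1 at 1.83 TPM, Trp53 at 42.5 TPM and Gar1 at 61.0 TPM. Trp53 is the tumour suppressor p53 and Gar1 a protein of the snoRNPs that modify ribosomal RNA.

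The other 6 were single libraries. Clec11a, a secreted growth factor, was at 16.2 TPM in high progenitor clone 8, and Meis1 was at 1.55 TPM in low progenitor clone 13. In monocytes Etv4 was at 0.981 TPM in high clone 19, Cd27 at 0.647 TPM in high clone 15 and at 0.501 TPM in low clone 20, and Bbc3 at 4.58 TPM in high clone 4.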

How the results depend on the processing

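TPM hold no counts, and 1 library per clone and state gives no technical error. The count of genes called in progenitors was 0 as analysed and 0 with pseudocounts of 0.1 and 5, other filters, quantile normalization, rescaling without mitochondrial, Gm and pseudogene entries, no set covariate, the mitochondrial share as covariate, 3 libraries per group and set, and clones 21 and 24 ranked. It was 1 in clones 1 to 13 alone, 2 in clones 15 to 26 alone, 8 for the slope over 22 libraries, and 3 with Hoxb8 and Esr1 kept in the adjustment, a setting added after seeing the data. Those 3 were Hoxb8, which the choice of groups fixes, Esr1, which is part of the same construct, and Smim24. The limma adjusted p of Smim24 was 0.0473 with Hoxb8 and Esr1 counted and 0.142 without. Leaving out 1 library gave 0 to 4 calls, with 4 (Aldh7a1, Gm16265, Ltbp3 and Smim24) without clone 11. The cause of these changes was not tested.

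Genes at an unadjusted p under 0.05 numbered 1431, and 834 (without clone 8) to 2458 (without clone 22) when 1 library was left out, with 921 and 891 without clones 7 and 9. They numbered 368 without the set covariate, 241 with clones 21 and 24 ranked, 2166 with no filter, 2508 in clones 1 to 13 and 350 in clones 15 to 26. For the difference between sets, leaving out 1 clone gave 0 to 4 calls (2 without clone 1, 4 without clone 11, 2 without clone 17 and 1 without clone 26). The monocyte comparison and the difference between states kept 0 calls in every alternative run. Hoxb8 in monocytes ranged from 0.78 to 1.17 when 1 clone was left out and was 0.58 (exact permutation p = 0.245) with 3 clones per group and set.

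The replicate block (clone) changed no call in the difference between states: 0 genes were called with it and 0 without it, and 197 and 179 had an unadjusted p under 0.05.

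Of 72 named genes under the other alternatives, 992 of 1001 values kept their sign and their side of the threshold, and 1150 of 1152 when a library was left out. No gene passed in the main progenitor run and few settings called any, so the side of the threshold could hardly change. Genes named for the same sign in both sets could not reverse in clones 1 to 13 or clones 15 to 26 alone. These counts are therefore partly fixed by the absence of calls and the choice of genes. Reversed in sign were Grn (-0.050) and Gapdh (-0.12) in clones 15 to 26 alone, Ms4a2 in clones 1 to 13 alone (-0.45) and without clone 19 (-0.048, with 0.727 as the highest value when 1 library was left out), and, with clones 21 and 24 ranked, Cenpe (-0.028), Polr1b (-0.011), Clk4 (-0.11) and Son (-0.084).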
